A study of Homo sapiens with 6 samples.

Results

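The genes of the kinetochore and of the spindle checkpoint were described in RNA from NCI-H929, a human multiple myeloma cell line, that was incubated with or without recombinant IRE1. The kinetochore is the protein assembly that forms on the centromere of each chromosome and holds it to the microtubules of the mitotic spindle. Its inner layer binds centromeric chromatin, its outer layer binds microtubules, and a fibrous corona adds motors and adaptors on unattached kinetochores. The spindle checkpoint delays anaphase until every kinetochore is attached, and the chromosomal passenger complex releases faulty attachments. Most of these genes are transcribed mainly in dividing cells. The 42 genes were a list of centromere, kinetochore and mitotic checkpoint genes that includes CENPF, and all 42 were found by symbol among the 24945 genes with at least 1 count.

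IRE1 is a sensor of unfolded proteins in the endoplasmic reticulum that cuts the XBP1 mRNA, and a set of other mRNAs, through its RNase domain. In the study 5 µg of total RNA was held for 1 h at 37 °C in a buffer with ATP and then heated to 95 °C for 5 min. The 3 IRE1-treated samples contained 2 µg of recombinant human IRE1, amino acids 467 to 977, and the 3 controls had the same incubation without the protein. Both groups came from the same cell line, for which the labels list no genetic change or drug, so the only planned difference was the protein. Purified RNA met a soluble fragment of the enzyme, without membranes, ribosomes or RNA-binding proteins. Poly(A)-containing RNA was then selected and sequenced. According to the design text the input was 6 biological replicates, and nothing further says how their cultures were kept apart, so the p-values measure only the spread between these samples.

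Between 19615715 and 25678499 read pairs per library were counted on genes, and the 42 genes held 0.229 to 0.236% of them in the controls and 0.217 to 0.229% in the IRE1-treated samples. Control libraries differed among themselves by a chi-square of 2.21 to 3.07 per gene, where 1 is the counting error. IRE1-treated libraries differed among themselves by 3.39 to 10.96 per gene. IRE1-treated replicate 1 lay farthest from the controls (22.5 to 29.2 per gene) and IRE1-treated replicate 3 nearest (7.96 to 10.1 per gene). Mitochondrial genes took 4.89 to 4.97% of gene counts in the controls and 5.12 to 5.33% in the IRE1-treated samples, and their part in the results was not tested. All 10 plasma cell and myeloma markers were measured, with summed levels of 268023 to 272763 normalized counts in the controls and 267613 to 286325 in the IRE1-treated samples. Of these 10 markers edgeR called 1 lower and 2 higher, beside 12.4% and 10.3% of all genes tested. Among markers of other cell types, CD3E had 898 to 941 normalized counts in the controls and 947 to 1178 in the IRE1-treated samples, and KRT18 had 1105 to 1184 and 1261 to 1425. Their part in the results was not tested. PPBP was at 0 in every library, CD3D, CD14, MS4A1 and EPCAM were at or near 0, and PECAM1 was not matched. BLOC1S1, a known IRE1 substrate, fell to 39.0% of its control level (log2 fold change -1.37, SE 0.095, adjusted p = 1.25e-06 from edgeR), whereas XBP1 had a log2 fold change of -0.09 (SE 0.044, adjusted p = 0.143 from edgeR) in these gene-level counts. The XBP1 counts were 54107 to 57305 in the IRE1-treated samples and 58466 to 61048 in the controls, without overlap, as for 20% of all genes tested. XBP1 was called lower in 4 of 15 alternatives. The study reported fewer XBP1 reads 5′ of the cleavage sites and similar numbers 3′ of them.

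The hexamer CUGCAG is the sequence around which IRE1 cuts its known substrates, after its first G, when it lies in the loop of a hairpin. It was searched in the sense direction of the canonical transcript of each gene; the hexamer is its own reverse complement. At least 1 copy was present in 36 of the 42 transcripts (85.7%) and in 85.3% of 12225 tested protein-coding transcripts. The 42 transcripts held 134 copies, or 0.864 per kilobase, against 0.806 per kilobase in all. A copy that met a loop rule was present in 19 of the 42 (45.2%) and in 40.4% of all. By this rule the first G had to be unpaired in a hairpin loop 5 to 11 bases long with a stem of 3 or more stacked pairs, in the predicted fold of a 30-base window. No copy was present in CENPA, CENPC, CENPK, CENPW, MIS12 or TTK, and the most were in INCENP (16), CENPF (15), MAD1L1 (10) and ZWINT (8). These windows are shown because they belong to CENPF, which the study followed up as a substrate, and to the 7 genes of the list that passed the test. For INCENP, CENPF, CENPE, CENPT and BIRC5 every copy that met the loop rule is given. For KNL1, BUB1B and CENPX, where none met it, the first copy of the coding sequence that has its whole window in 1 exon is given. Sequences run 5′ to 3′ as RNA, capitals mark the hexamer, and coordinates are GRCh37 with the strand of the gene.
INCENP exon 4, coding (chr11:61897373-61897402, plus): cccgugcugcggCUGCAGcugccgcggcua
INCENP exon 19, coding (chr11:61919383-61919412, plus): aacucaccgcccCUGCAGggcgccaggguc
INCENP exon 19, 3′ UTR (chr11:61919593-61919622, plus): uggguguuucugCUGCAGguggcagguggc
INCENP exon 19, 3′ UTR (chr11:61919862-61919891, plus): gccaccaguggcCUGCAGgacgaagguacu
INCENP exon 19, 3′ UTR (chr11:61919943-61919972, plus): ucggagaugcugCUGCAGugagugguucca
CENPF exon 12, coding (chr1:214815369-214815398, plus): gagaaggagugcCUGCAGcaugaauuacag
CENPF exon 12, coding (chr1:214815597-214815626, plus): auaugugaaauaCUGCAGgcugaaaaguau
CENPF exon 18, coding (chr1:214830678-214830707, plus): gugguauucaccCUGCAGaagacacggaag
CENPF exon 13, coding, inside the study's amplicon (chr1:214819668-214819697, plus): aagaaucuaaaaCUGCAGuggagaugcuuc
CENPE exon 23, coding (chr4:104079879-104079908, minus): auuacugagaaaCUGCAGcaaacuuuagaa
KNL1 exon 10, coding (chr15:40913586-40913615, plus): uuuccauaaacuCUGCAGacaaaauacaua
BUB1B exon 17, coding (chr15:40501899-40501928, plus): aguuaagugccuCUGCAGaguuguguauag
CENPT exon 4, 5′ UTR (chr16:67867787-67867816, minus): ggaaggcggagcCUGCAGcuggcugggcgg
CENPX exon 3, coding (chr17:79977539-79977568, minus): agcggggacgcgCUGCAGcucaugguggag
BIRC5 exon 4, 3′ UTR (chr17:76220065-76220094, plus): guugaaucugagCUGCAGguuccuuaucug

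In the comparison of IRE1-treated samples with controls, which asks which mRNAs lose poly(A)-linked sequence when IRE1 is present, 7 of the 42 genes passed the test, 4 lower and 3 higher. The share was 16.7%, beside 22.7% of all 14398 genes tested. INCENP, KNL1, CENPE and BUB1B fell, and CENPX, BIRC5 and CENPT rose. Here and below, a gene that fell or rose did so relative to the scaled total of its library. The absolute amount of an mRNA was not measured, so a rise is a larger share and not a gain of molecules. The TMM scaling factors were 1.02 to 1.03 in the controls and 0.947 to 0.996 in the IRE1-treated samples. The lower calls were 9.52% of the list against 12.4% of all genes, and the higher calls 7.14% against 10.3%. Changes were small, with the lowest log2 fold change at -0.45 for KNL1 and the highest at 0.36 for CENPW. Calls came from the quasi-likelihood test of edgeR, adjusted over all genes tested by the Benjamini-Hochberg method, at a threshold of 0.05. An exact two-sided permutation test of 3 against 3 libraries cannot give a p below 0.1, so none of the calls can be made from a single gene alone. The protein was added to purified bulk RNA, in whose input fewer cells with a transcript and less of it per cell cannot be told apart.

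The median log2 fold change was 0.07 over the 42 genes and 0.0045 over all genes tested, with 25 of the 42 above 0 and 17 below, and this difference was not tested. Taken library by library, the median of the 42 shifts from the control mean was a log2 value of 0.023 in IRE1-treated replicate 1, 0.054 in replicate 2 and 0.022 in replicate 3. Before adjustment 13 genes had a p under 0.05. The 3 libraries of each group did not overlap in 3 genes that were lower (7.14%, against 20% of all genes tested) and in 11 that were higher (26.2%, against 19.1%). With scaling by library size alone, which moved the median of all genes to -0.07, edgeR called 5 lower and 0 higher (3 higher at an unadjusted p under 0.05), and the list's median was -0.0037. The same fit called 2596 lower and 683 higher among all 14398 genes. Each library's trend with the length and GC content of the transcripts was also removed, the IRE1-treated libraries included. This takes out any group difference that follows length or GC content, whatever its source. In this fit edgeR called 1 lower and 6 higher of the 42. Over all 14111 genes in that fit it called 562 lower and 986 higher. The median was 0.035 over the 42 genes and 0.019 over all. In that fit 13 of the 42 genes had the opposite sign. Without IRE1-treated replicate 3 the fit called 7 lower and 10 higher, beside 2221 and 2091 of all 14553 genes. It called 2 lower and 0 higher when control replicate 1, control replicate 2 or IRE1-treated replicate 2 was the one left out (8, 4 and 7 higher at an unadjusted p under 0.05). Over all genes those fits called 972, 992 and 1089 lower and 709, 638 and 893 higher. Without control replicate 3 the fit called 3 lower and 1 higher, beside 1360 and 947 over all genes. DESeq2 on all libraries called 4 lower and 2 higher, beside 1502 and 1304 over all genes.

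**Figure D1:**
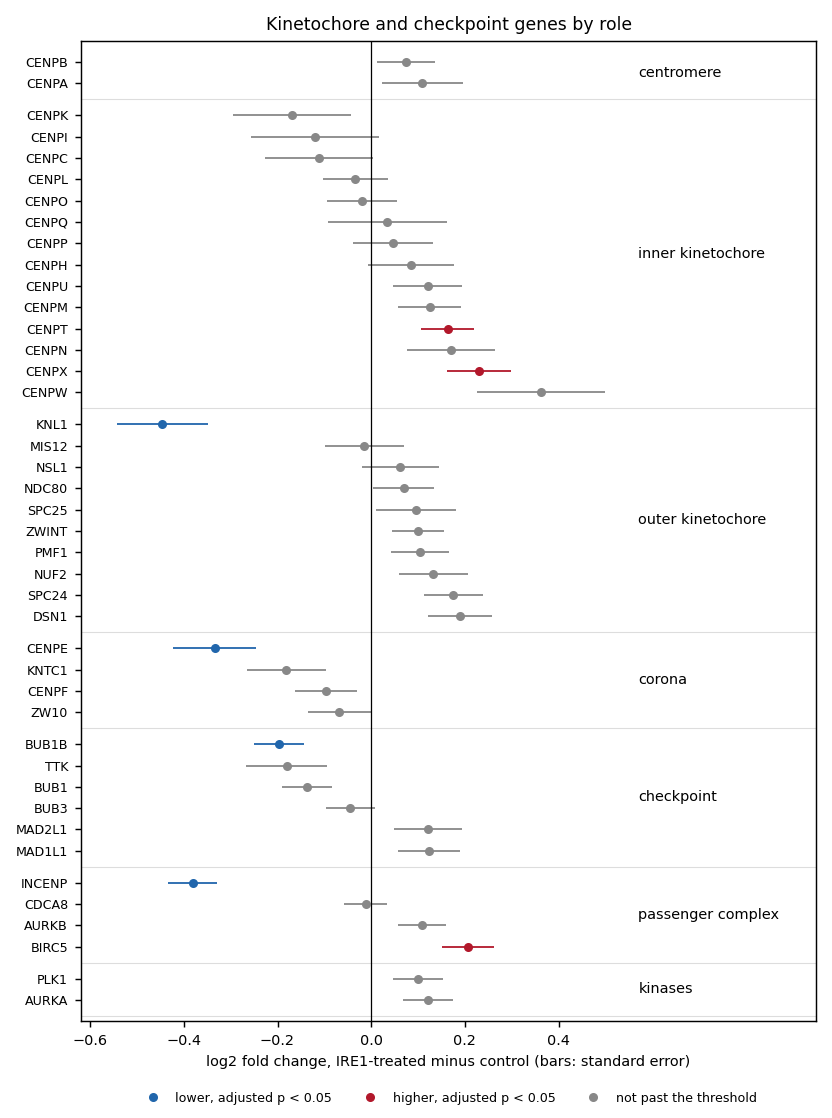
Log2 fold change (IRE1-treated minus control, x axis) of each of the 42 genes with its standard error as a bar, grouped by role (y axis). Points in blue passed the test as lower and points in red as higher. The 4 corona genes all lie below 0, and KNL1, at -0.45, lies below the other outer kinetochore genes, which run from -0.015 to 0.19.

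The chromosomal passenger complex held calls in both directions. INCENP is its scaffold and binds Aurora B at its C-terminal end. Its gene (ENSG00000149503, chr11:61891470-61920641, plus strand) had 2404, 2274 and 2453 normalized counts in the controls and 1783, 1775 and 1915 in the IRE1-treated samples. All 3 IRE1-treated libraries lay below all 3 controls. The means were 2377 ± 92.3 and 1824 ± 78.4 (SD, n = 3 each), or 76.7% of control, with a log2 fold change of -0.38 (SE 0.053, adjusted p = 2.3e-04 from edgeR). INCENP was called lower under every alternative that was run, with log2 fold changes between -0.46 and -0.33, and was the only gene of the list still called lower with the length and GC trend removed (-0.33, adjusted p = 5.9e-04 from edgeR). Its transcript of 4114 bases, longer than the list's median of 2577, carried the 16 copies of CUGCAG noted above, of which 5 met the loop rule. Genes of the list with a copy had a median log2 fold change of 0.08, and those without one -0.06. Over all tested protein-coding genes these medians were -0.02 and 0.12. The part of the copies in the fall of INCENP was not tested.

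BIRC5, or survivin, is the subunit that carries the complex to the centromere. Its counts (ENSG00000089685, chr17:76210267-76221717, plus strand) were 1821, 1829 and 1804 in the controls and 2227, 2130.0 and 1940.1 in the IRE1-treated samples. The controls were tight, the IRE1-treated libraries spread over a wider range, and the groups did not overlap. The log2 fold change was 0.21 (SE 0.055, adjusted p = 0.0147 from edgeR). The call was lost with library size scaling (0.13, adjusted p = 0.0860 from edgeR) and without control replicates 1, 2 or 3 or IRE1-treated replicate 2, where the adjusted p from edgeR was 0.0589 to 0.0665. AURKB, the kinase of the complex, had 1673, 1704 and 1784 normalized counts against 1903, 1872 and 1787, so that its groups were separated by a narrow gap (log2 fold change 0.11, adjusted p = 0.147 from edgeR). The sign of AURKB turned to -0.025 with the length and GC trend removed. CDCA8, or borealin, was level at 2485 ± 30.5 and 2465 ± 35.0 (SD, n = 3 each; log2 fold change -0.012, SE 0.046). The ratio of raw INCENP to BIRC5 counts in a library was 1.24 to 1.36 in the controls and 0.801 to 0.987 in the IRE1-treated samples. A factor common to all genes of a library cannot alter such a ratio, but a trend with transcript length can. The transcripts of INCENP and BIRC5 have 4114 and 2574 bases. This pair and the ratios given below were chosen after the values were seen, and their difference was not tested.

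The inner kinetochore, the constitutive centromere-associated network, had 14 genes, of which 2 rose and 0 fell by edgeR (1 and 0 by DESeq2, 3 and 0 at an unadjusted p under 0.05). Over all genes tested 10.3% rose and 12.4% fell by edgeR. CENPX is a small histone-fold protein of the CENP-T-W-S-X complex. Its counts (ENSG00000169689, chr17:79976578-79981983, minus strand) were 595, 594 and 666 in the controls and 749, 712 and 713 in the IRE1-treated samples. Each IRE1-treated library was above the highest control. The log2 fold change of CENPX was 0.23 (SE 0.069, adjusted p = 0.0246 from edgeR). This call was lost with library size scaling (adjusted p = 0.129), with the length and GC trend removed (0.07, adjusted p = 0.495), and without control replicate 1 (adjusted p = 0.122), control replicate 2 (0.125) or IRE1-treated replicate 2 (0.0616), all from edgeR. With a replicate block, edgeR gave an adjusted p of 0.0517 for CENPX.

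CENPT bridges centromeric DNA to the NDC80 complex. Its counts (ENSG00000102901, chr16:67862060-67881714, minus strand) were 1459, 1443 and 1486 against 1762, 1617 and 1539, also without overlap. It stood at the edge of the threshold, with a log2 fold change of 0.16 (SE 0.057, adjusted p = 0.0492 from edgeR). Just outside it were DSN1 (adjusted p = 0.0570) and SPC24 (0.0578), both from edgeR. CENPT lost its call in 11 of 15 alternatives. Among them were DESeq2 (adjusted p = 0.0619) and the omission of any 1 library other than IRE1-treated replicate 3 (adjusted p = 0.0984 to 0.170 from edgeR). Genes on the opposite strand shared 20.2% of its exon bases, and for CENPX 2.81%; whether the authors counted by strand is not given in the sources used here.

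CENPW, the histone-fold partner of CENPT, had the highest log2 fold change of the list. Its counts were 121, 112 and 117 in the controls and 169, 161 and 122 in the IRE1-treated samples, so the separation hung on a gap of few reads at IRE1-treated replicate 3. The value was 0.36 (SE 0.137, adjusted p = 0.0678 from edgeR), and it passed only without IRE1-treated replicate 3 (0.51, adjusted p = 0.00594 from edgeR). CENPM, a subunit of the CENP-H-I-K-M group, had 637, 644 and 634 against 743, 690.3 and 658, again with no overlap (log2 fold change 0.12, adjusted p = 0.200 from edgeR), and turned to -0.023 with the length and GC trend removed. The other 10 genes of this layer overlapped between groups. CENPN (0.17) and CENPU (0.12) had the highest of their log2 fold changes, and CENPK (-0.17), CENPI (-0.12) and CENPC (-0.11) the lowest. CENPH, CENPP, CENPQ, CENPL and CENPO lay between -0.034 and 0.086. Beneath this layer, CENPA, the centromeric histone H3 variant, had a log2 fold change of 0.11 (SE 0.086), and CENPB, which binds centromeric satellite DNA, of 0.07 (SE 0.062), with overlapping libraries in both.

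In the outer kinetochore 1 of 10 genes fell and 0 rose by edgeR, as by DESeq2, and 2 were higher at an unadjusted p under 0.05. Of all genes tested edgeR called 12.4% lower and 10.3% higher. KNL1 is the scaffold that recruits BUB1 and BUB1B when phosphorylated. Its counts (ENSG00000137812, chr15:40886218-40956540, plus strand) were 791, 807 and 678 in the controls and 497, 516 and 654 in the IRE1-treated samples. The groups did not overlap, but IRE1-treated replicate 3 lay close to control replicate 3. The means were 759 ± 70.8 and 556 ± 85.4 (SD, n = 3 each), or 73.2% of control, with a log2 fold change of -0.45 (SE 0.096, adjusted p = 0.0041 from edgeR). KNL1 was called lower whichever library was omitted, and lost its call with the length and GC trend removed (-0.15, adjusted p = 0.165 from edgeR).

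NDC80, NUF2, SPC24 and SPC25, which form the microtubule-binding NDC80 complex, had log2 fold changes of 0.07, 0.13, 0.18 and 0.10. Only SPC24 had groups that did not overlap, with 1249, 1256 and 1229.7 against 1489.5, 1469 and 1264 normalized counts. DSN1, NSL1, PMF1 and MIS12, the MIS12 complex that joins inner and outer layers, had 0.19, 0.06, 0.10 and -0.015. DSN1 had 648, 617 and 627 in the controls and 772, 716 and 675 in the IRE1-treated samples, without overlap. SPC24 and DSN1 passed the test only without IRE1-treated replicate 3 (adjusted p = 0.0015 and 0.0138 from edgeR). ZWINT, which binds KNL1, also had groups that did not overlap, at 1109, 1075 and 1075 against 1212, 1125 and 1158 (log2 fold change 0.10, adjusted p = 0.218 from edgeR). The ratio of KNL1 to DSN1 counts was 1.08 to 1.31 in the controls and 0.644 to 0.968 in the IRE1-treated samples.

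**Figure D2:**
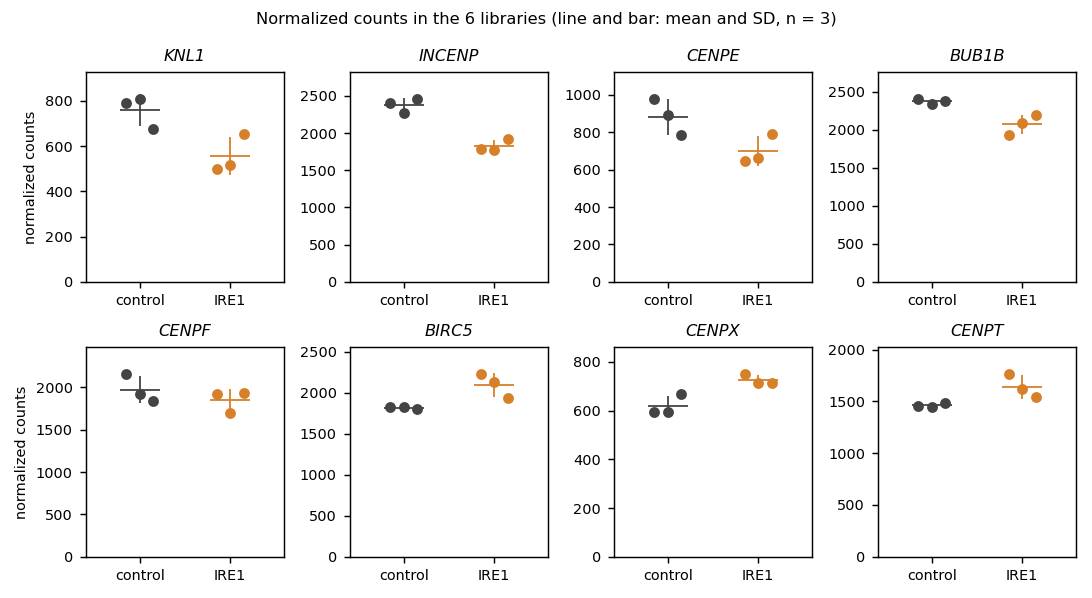
Normalized counts (y axis, from 0) in the 3 control and 3 IRE1-treated libraries for the 7 genes that passed the test and CENPF, 1 panel each, with the mean and SD (n = 3). INCENP, KNL1 and BUB1B are separated with the controls above, BIRC5, CENPX and CENPT with the controls below, and CENPE and CENPF overlap.

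All 4 corona genes had a negative log2 fold change, and CENPE alone fell by edgeR and by DESeq2. None rose by either tool, and 0 were higher at an unadjusted p under 0.05. With the length and GC trend removed, CENPF (0.20) and KNTC1 (0.047) were positive. CENPE, CENPF and KNTC1 have transcripts of at least 5000 bases, and 83.1% of all tested genes of that length were negative. Over all genes tested edgeR called 12.4% lower and 10.3% higher. CENPE is the kinesin that moves chromosomes to the metaphase plate. Its counts (ENSG00000138778, chr4:104026506-104119602, minus strand) were 976, 890.1 and 784 in the controls and 648, 661 and 793 in the IRE1-treated samples. IRE1-treated replicate 3 was above control replicate 3, so the groups overlapped. The log2 fold change was -0.33 (SE 0.088, adjusted p = 0.0130 from edgeR), with 79.3% of the control mean remaining. The call was lost without control replicate 1 (adjusted p = 0.0981), control replicate 2 (0.0521) or IRE1-treated replicate 2 (0.0804), and with the length and GC trend removed (-0.044, adjusted p = 0.731), all from edgeR.

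CENPF, a large coiled-coil protein of the corona that binds microtubules and dynein regulators, was chosen by the study from the exon counts of these same libraries, so its gene-level value is not independent of that choice. Its counts (ENSG00000117724, chr1:214776528-214837917, plus strand) were 2156, 1926 and 1845 in the controls and 1922, 1695 and 1930.4 in the IRE1-treated samples. Of the 3 IRE1-treated libraries 2 were inside the control range, and 1 lay below it. The means were 1976 ± 162 and 1849 ± 134 (SD, n = 3 each), and the log2 fold change of -0.10 (SE 0.066, adjusted p = 0.321 from edgeR) was within the spread between replicates. With the length and GC trend removed the sign turned and the value passed the test as higher (0.20, adjusted p = 0.0410 from edgeR). That value is relative to the trend of genes of similar length and GC content.

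The study's amplicon over the CENPF loop spanned chr1:214819574-214819838, in exon 13 of 20, at transcript positions 6829 to 7093 of 10290. It enclosed exactly 1 copy of CUGCAG, the fourth CENPF window above, whose first G is transcript position 6937. In the fold of the 30-base window this G was unpaired in a hairpin loop of 4 bases closed by 2 stacked pairs, which is under both minimums of the loop rule. The study instead folded transcript sequences with Mfold and reported a stem-loop at the CENPF cleavage site. It had selected CENPF for a large fall in exon counts, a measure unlike the gene totals used here. By qRT-PCR it found less CENPF mRNA across this loop in IRE1-treated RNA. In cells given ER stress inducers it detected no decay of CENPF mRNA at the early time measured. After a longer exposure to thapsigargin it reported less CENPF protein. The 30-base fold differs from the study's in length and program, and cannot decide whether the loop forms. The other CENPF primer pair matched exon 15, at positions 8152 to 8303, 3′ of that copy. The study describes its pairs of this kind as lying in the 5′ region, and reported a significant decrease with them for every candidate. Of the transcript, 67.4% lies 5′ of this copy. The counts analysed here are 1 total per gene and do not separate reads on either side of it. KNTC1 and ZW10, of the RZZ complex that recruits dynein and the checkpoint proteins, had log2 fold changes of -0.18 (SE 0.084, adjusted p = 0.135 from edgeR) and -0.07 (SE 0.067). The ratio of CENPE to CENPF counts was 0.425 to 0.462 in the controls and 0.337 to 0.411 in the IRE1-treated samples.

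Of the 6 checkpoint genes 1 fell and 0 rose by edgeR and by DESeq2, and 0 were higher at an unadjusted p under 0.05. The shares over all genes tested were 12.4% lower and 10.3% higher by edgeR. BUB1B encodes BUBR1, a subunit of the mitotic checkpoint complex that inhibits the anaphase-promoting complex. Its counts (ENSG00000156970, chr15:40453224-40513324, plus strand) were 2401, 2345 and 2378 against 1935, 2084 and 2194. All IRE1-treated libraries were below the lowest control. The log2 fold change was -0.20 (SE 0.053, adjusted p = 0.0153 from edgeR), and 87.2% of the control mean remained. The call missed the threshold without control replicates 1, 2 or 3 or IRE1-treated replicate 2 (adjusted p = 0.0541 to 0.0741 from edgeR) and with the length and GC trend removed (-0.13, adjusted p = 0.0650 from edgeR), with the direction kept. The overlapping genes BUB1B-PAK6 and PAK6 on the same strand shared 10.2% of its exon bases.

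BUB1, the kinase that marks the centromere for shugoshin, had 4191, 4072 and 3922 normalized counts in the controls and 3519.5, 3596 and 3962 in the IRE1-treated samples. The first and second IRE1-treated libraries were below every control and the remaining one was inside the control range (log2 fold change -0.14, SE 0.053, adjusted p = 0.0750 from edgeR). TTK, the kinase that starts checkpoint signalling, had -0.18 (SE 0.087), and BUB3, the partner of BUB1 and BUB1B, -0.045 (SE 0.052). The ratio of BUB1B to BUB3 counts was 0.881 to 0.955 in the controls and 0.818 to 0.863 in the IRE1-treated samples. MAD1L1 and MAD2L1, which make the inhibitory form of MAD2 at unattached kinetochores, had log2 fold changes of 0.12 each. MAD1L1 had 539.7, 536 and 546 against 612, 583 and 572 (adjusted p = 0.208 from edgeR), without overlap, whereas MAD2L1 overlapped. Among the remaining kinases, AURKA, which acts at spindle poles, had 2856, 2955 and 2892 against 3418, 3013 and 3040.2, without overlap (log2 fold change 0.12, adjusted p = 0.122 from edgeR), and passed only without IRE1-treated replicate 3 (adjusted p = 0.0427 from edgeR). PLK1, a kinase of mitotic entry and kinetochore attachment, had a log2 fold change of 0.10 (SE 0.053).

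The fold changes of these genes moved with the length of their transcripts. Across the 42 genes the Spearman correlation of canonical transcript length with log2 fold change was -0.59, and across 14111 tested genes with a transcript sequence it was -0.57. These are descriptions across genes, which are not independent replicates. With GC content the correlation was 0.40 across the 42 and 0.22 across all. Under 2000 bases, 11 of 12 genes of the list were above 0, with a median log2 fold change of 0.11 (0.16 over all genes of that length). From 2000 to under 5000 bases, 9 of 20 were negative. At 5000 bases or more, 7 of 10 were negative, with a median of -0.10 (-0.20 over all genes of that length, of which 83.1% were negative and 36.8% were called lower). The part of length and GC content in the calls was not tested. The fits with their trend removed cannot decide it, because they also take out any such trend that came with the protein.

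**Figure D3:**
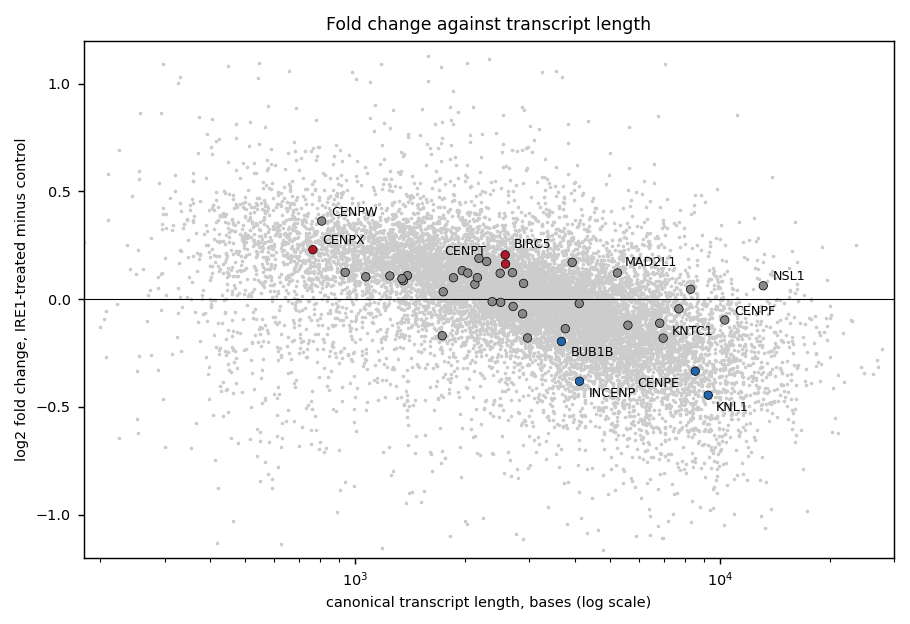
Log2 fold change (IRE1-treated minus control, y axis) against canonical transcript length in bases (x axis, log scale) for 14071 genes in grey and the 42 genes in larger points, blue and red where they passed the test as lower and higher; 40 genes lie outside the axes. CENPX and CENPW are at the short end, above 0, and KNL1 and CENPE are at the long end, below 0.

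Transcripts of at least 5000 bases differed in whether the coding sequence or the 3′ UTR was long. KNL1, CENPE, KNTC1 and CENPF have 6948, 8103, 6627 and 9342 coding bases, and all 4 had a negative log2 fold change. NSL1, CENPP, BUB3 and MAD2L1 have 843, 864, 984 and 615 coding bases and 3′ UTRs of 12258, 7383, 6635 and 4498 bases. Their log2 fold changes were 0.06, 0.05, -0.045 and 0.12, and with the length and GC trend removed edgeR called NSL1, CENPP, BUB3 and MAD2L1 higher, along with CENPF and BIRC5. IPPK, on the opposite strand, shared 39.9% of the exon bases of CENPP, against 0% shared for NSL1, BUB3 and MAD2L1. The lengths are those of the canonical transcripts, and which isoforms were expressed was not tested. CENPI and CENPC, with 2268 and 2829 coding bases and 3′ UTRs of 3162 and 3846 bases, had -0.12 and -0.11, below the -0.10 of CENPF. The Spearman correlation with log2 fold change was -0.64 for coding length and -0.10 for 3′ UTR length across the 42 genes, and -0.52 and -0.48 across 12225 protein-coding genes. The grouping was made after their values were seen.

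The control levels per kilobase of merged exons ordered the list by a range from 17.1 ± 1.6 normalized counts for CENPI to 1074 ± 31.7 for PLK1 (SD, n = 3). On this scale PLK1, CDCA8 (1033 ± 12.7) and AURKA (991 ± 17.1) led, and PLK1 and CDCA8 did not differ beyond their spread. AURKB (768 ± 25.5) and PMF1 (724 ± 22.04) followed, and their ranges of mean and SD touched. INCENP (534 ± 20.7) and BUB1B (532 ± 6.4) were level with each other. NUF2 (482 ± 49.0) could not be ordered against BIRC5, NDC80 or ZWINT, while BIRC5 (477 ± 3.3) was above ZWINT (457 ± 8.2) by more than their spread. CENPF (158 ± 12.97) stood in the lower part of the list, and CENPE (89.0 ± 9.7), KNTC1 (78.2 ± 5.8), MAD1L1 (77.7 ± 0.748) and KNL1 (74.0 ± 6.9) were close together. Below CENPQ (68.5 ± 4.0) came NSL1, CENPK, CENPC and CENPP, at 34.0 to 41.8. Per kilobase of canonical transcript the order correlated with this one at 0.97 (Spearman, 42 genes), but places near the top moved. PLK1 (2367) then led PMF1 (1707) and AURKA (1427), and CDCA8 (1048) was at rank 6 and no longer near PLK1. MAD1L1 moved from rank 35 to rank 27. The lowest raw count of any gene of the list in a library was 79.

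**Figure D4:**
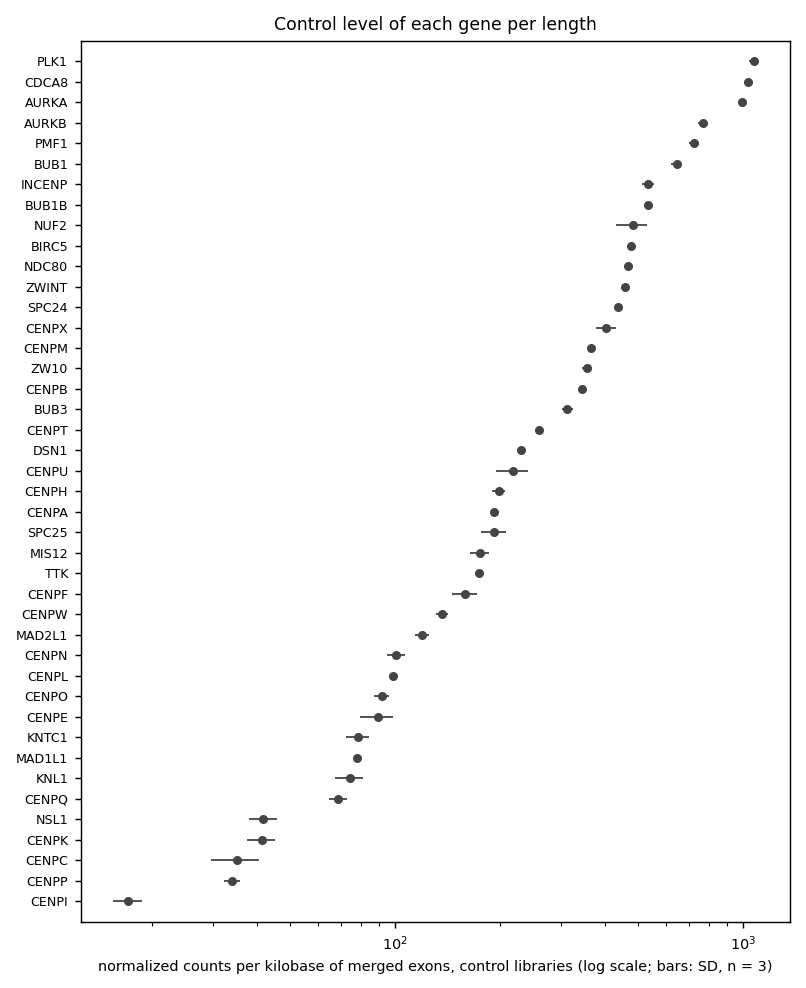
Mean normalized counts per kilobase of merged exons in the 3 control libraries (x axis, log scale; bars show the SD, n = 3) for each of the 42 genes (y axis), in descending order. Levels run from 1074 for PLK1 to 17.1 for CENPI.

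The genes that work beside the kinetochore were taken as 80 genes in 6 lists, of which 18 fell (22.5%, against 12.4% of all genes tested) and 9 rose (11.3%, against 10.3%). Cohesin, the ring that holds sister chromatids together, with its loaders and protectors had 8 of 15 genes lower and 1 higher. STAG2, a cohesin subunit, fell to 77.9% of control (log2 fold change -0.36, SE 0.068, adjusted p = 0.0018 from edgeR), and NIPBL, the loader, to 76.6% (-0.38, SE 0.090, adjusted p = 0.0068). PTTG1, or securin, which holds separase inactive, rose to 128.5% (0.36, SE 0.066, adjusted p = 0.0015 from edgeR). The median transcript of this list was 6062 bases, against 2577 in the 42 genes, and 36.8% of all tested genes of at least 5000 bases were called lower. With the length and GC trend removed 2 cohesin genes were lower, and with the replicate block as well edgeR called 0 (2 at an unadjusted p under 0.05). The lower calls of the cohesin list numbered 4 when control replicate 1 was omitted and 11 when IRE1-treated replicate 3 was, and those of all 80 genes 8 with control replicate 2 omitted and 26 with IRE1-treated replicate 3 omitted. NIPBL went to -0.08 with the length and GC trend removed (adjusted p = 0.503 from edgeR), and missed the threshold without control replicate 1 (adjusted p = 0.0509). STAG2 went to -0.14 (adjusted p = 0.0456) and PTTG1 to 0.19 (adjusted p = 0.0192) in the fit of edgeR with the trend removed. The anaphase-promoting complex, the ubiquitin ligase that the checkpoint inhibits, had 3 of 20 genes lower and 6 higher. CENP-A loading factors and the remaining inner kinetochore genes had 0 calls in 6 genes by edgeR and by DESeq2, with 1 lower and 1 higher at an unadjusted p under 0.05.

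**Figure D5:**
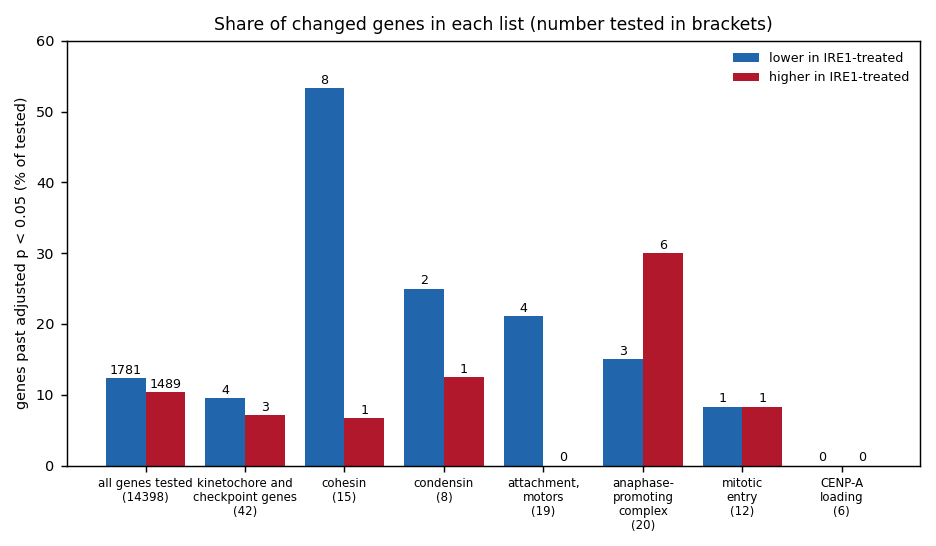
Share of tested genes (y axis, %) that passed the test as lower (blue) and higher (red) among all genes tested, the 42 genes and the 6 lists of related mitotic genes, with the number of genes above each bar. Cohesin has the tallest bar of lower genes (8 of 15) and the anaphase-promoting complex the tallest of higher genes (6 of 20).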

How the data were processed

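RNA sequencing was carried out on 6 libraries of NCI-H929 RNA, 3 control and 3 IRE1-treated, prepared with a stranded poly(A) kit. Reads were trimmed (Cutadapt 1.12) and aligned to GRCh37 (hg19) (STAR 2.5.3a), and the authors deposited raw counts per Ensembl gene from HTSeq 0.6.1p1. The strand setting and overlap mode are not given in the sources used here. They also deposited CPM normalized with edgeR 3.24.3 for 12558 genes, rounded to 3 significant digits, which served only as an alternative. The 5 HTSeq summary lines, 21.4 to 23.2% of counts, entered neither library sizes nor tests.

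Symbols, lengths, GC content and transcript sequences came from GENCODE 44 lifted to GRCh37. Genes passing filterByExpr (14398) were tested with edgeR 4.0.16 in R 4.3.3, with TMM factors (0.947 to 1.03), glmQLFit, glmQLFTest and Benjamini-Hochberg adjustment at 0.05, with no covariate. For normalized counts, each count was divided by the TMM-scaled library size and multiplied by the mean library total. The script was tested on simulated data for this comparison: 83 of 100 genes changed 2-fold and 75 of 100 changed 1.5-fold were recovered, and 5 unchanged genes were called. Windows were folded with ViennaRNA 2.7.2. Alternatives were DESeq2 1.42.0, other scalings and filters, limma 3.58.1 on log2(CPM + 1) with a pseudocount of 1, a replicate block, removal of the length and GC trend (loess, span 0.5), and leaving out each library.

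Of the listed markers of other cell types, 1 is not reported here. The 42 genes, the related lists and the tests were chosen with earlier results of these data known. The genes named were those past the threshold, those whose groups did not overlap, CENPF, the lowest and the highest, and up to 2 lowest and 2 highest called genes of each related list. Others are outside this rule and were named by role.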

Additional observations from a re-analysis of the deposited data

How the results depend on the processing

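Of the 42 genes, 4 were called lower and 3 higher, and the median log2 fold change was 0.07. With the length and GC trend removed these values were 1, 6 and 0.035, and with library size scaling 5, 0 and -0.0037. Leaving out a library gave 2 to 7 lower, 0 to 10 higher and a median of 0.054 to 0.082. The 80 related genes had 18 lower and 9 higher calls, against 5 and 5 with the trend removed, 27 and 3 with library size scaling, and 8 to 26 lower and 2 to 16 higher when a library was left out. Signs turned with the trend removed for 13 of the 42 genes (6 to positive, 7 to negative). Among the named genes of all lists they turned for CENPM (-0.023), CENPF (0.20), AURKB (-0.025), CLASP1 (0.0039) and NCAPD3 (0.069). Over all genes the calls were 1781 lower and 1489 higher, 2596 and 683 with library size scaling, 562 and 986 with the trend removed, and between 972 and 2221 lower and 638 and 2091 higher when a library was left out. The cause of these differences was not tested. DESeq2 called 4 and 2 of the 42, upper quartile scaling, the stricter filter and limma on CPM 4 and 3 each, and no filter 6 and 2.

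Deviations of same-numbered libraries from their group means correlated at -0.036, -0.005 and -0.112, which gave no sign of pairing. With 3 libraries per group these values cannot show whether the samples were paired. With the replicate block, 4 of the 42 were lower and 1 higher, and over all genes 1496 and 1117. With the block and the trend removed together, 1 was lower and 5 higher with a median of 0.035, and 3 of the related genes were lower and 4 higher. That fit gave CENPM -0.022, CENPF 0.21, AURKB -0.026, CLASP1 0.0026 and NCAPD3 0.070. The simulated data held changes of 1.5-fold and 2-fold, so recovery of the smaller changes called here was not measured.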

Other observations

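In the anaphase-promoting complex, ANAPC1, the scaffold subunit, fell to 72.6% of its control level (log2 fold change -0.46, SE 0.069, adjusted p = 3.7e-04 from edgeR) and CDC27, a coactivator-binding subunit, to 83.5% (-0.26, SE 0.073, adjusted p = 0.0192). The small subunits CDC26 and ANAPC15 rose, with log2 fold changes of 0.44 (SE 0.129, adjusted p = 0.0220 from edgeR) and 0.36 (SE 0.065, adjusted p = 0.0013). ANAPC1 and ANAPC15 kept their calls whichever library was omitted, and CDC27 lost its call without control replicate 1 (adjusted p = 0.0743), control replicate 2 (0.114) or IRE1-treated replicate 2 (0.117), all from edgeR, and went to -0.053 with the length and GC trend removed (adjusted p = 0.580 from edgeR). CDC26 kept its call for 2 of the 6 and lost it without control replicates 1, 2 or 3 or IRE1-treated replicate 1 (adjusted p = 0.0611 to 0.0876 from edgeR). With the trend removed ANAPC1 had -0.23 (adjusted p = 0.0142), ANAPC15 0.20 (adjusted p = 0.0293) and CDC26 0.29 (adjusted p = 0.138), all from edgeR.

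Among attachment factors and spindle motors 4 of 19 genes fell and 0 rose by edgeR and by DESeq2, with 3 higher at an unadjusted p under 0.05. Over all genes tested edgeR called 12.4% lower and 10.3% higher, and 36.8% lower among those of at least 5000 bases. The transcripts of CLASP2 and CLASP1 have 7159 and 8141 bases. CLASP2 and CLASP1, which stabilise microtubule plus ends at kinetochores, had log2 fold changes of -0.50 (SE 0.096, adjusted p = 0.0021 from edgeR) and -0.22 (SE 0.062, adjusted p = 0.0160). CLASP1 missed the threshold without control replicates 1 or 3 or IRE1-treated replicate 2 (adjusted p = 0.0543 to 0.0815 from edgeR) and went to 0.0039 with the length and GC trend removed, while CLASP2 was called under every alternative run, with -0.27 once the trend was removed. In condensin, the complex that compacts chromosomes, SMC2 (-0.23, adjusted p = 0.0115 from edgeR) and NCAPD3 (-0.14, adjusted p = 0.0321) fell and NCAPH2 (0.17, adjusted p = 0.0499) rose. By edgeR the call for SMC2 was lost without control replicate 2 (adjusted p = 0.0716) and with the length and GC trend removed (-0.025, adjusted p = 0.835), and those for NCAPD3 and NCAPH2 without control replicates 1, 2 or 3 or IRE1-treated replicate 2 (adjusted p = 0.0968 to 0.128 and 0.0673 to 0.241). NCAPH2 also missed it by DESeq2 (adjusted p = 0.0614). Of 12 genes of mitotic entry and proliferation, MKI67, the Ki-67 antigen, fell to 79.2% (log2 fold change -0.34, SE 0.050, adjusted p = 3.6e-04 from edgeR) and CDK1, the kinase that drives mitotic entry, rose to 116.8% (0.22, SE 0.066, adjusted p = 0.0245). With the length and GC trend removed the log2 fold change of MKI67 was -0.037 and that of CDK1 0.18, and neither passed the test. CDK1 missed the threshold without control replicates 1, 2 or 3 or IRE1-treated replicate 1 as well (adjusted p = 0.0514 to 0.1002 from edgeR).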
